A study of Mus musculus with 6 samples.

Results

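The stem and memory transcription factors described here are 9 genes, Tcf7, Lef1, Bach2, Foxp1, Id3, Satb1, Bcl6, Ets1 and Myb. They were taken by name, as genes with this known role, with earlier results of these data in view. All 9 were found by symbol among the 25654 gene identifiers with a value, and all 9 were among the 10511 genes tested. They were measured in CD8 T cells, the killer lineage of T cells, from the spleens of aged mice (around 65 weeks old) and young mice (6 weeks old). Both groups were female C57BL/6 animals of wild-type genotype, with 3 libraries each. The cells of both groups were stimulated for 2 days with immobilised antibody to TCR-β (3 µg/ml) and antibody to CD28 (1 µg/ml) in IL-2 (10 ng/ml), a T cell growth factor, and were then grown for 5 more days in IL-2. The comparison is therefore between cultured, activated cells at day 7 and not between cells as they left the spleen. The sample titles call the libraries biological replicates, but nothing says whether each came from a separate mouse, so the p-values below measure the spread between these libraries, which may in part be technical.

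Naive and stem-like memory T cells hold a set of transcription factors that keep the cells undivided, long-lived and able to divide again, and many of these factors are turned down as a CD8 T cell becomes an effector. TCF-1 (encoded by Tcf7) and LEF-1 bind the same DNA motif and work with β-catenin or with corepressors of the Groucho/TLE family. BACH2 and BCL6 are repressors with a BTB domain, FOXP1 is a forkhead repressor linked to quiescence in naive T cells, and ID3 binds E proteins and blocks their attachment to DNA. SATB1 organises chromatin in developing T cells, ETS1 is the founding factor of the ETS family, and MYB supports self-renewal in blood progenitors and in stem-like CD8 T cells.

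Of the 9 genes, 6 were lower in aged cells (Tcf7, Lef1, Bach2, Foxp1, Satb1 and Bcl6), none was higher, and 3 did not pass the test (Ets1, Id3 and Myb). The test was limma on log2(CPM + 1), where CPM is reads scaled to a library sum of 1000000, with a call at a Benjamini-Hochberg adjusted p under 0.05 over all tested genes. For comparison, 28.7% of all tested genes were called, 12.5% lower and 16.2% higher in aged cells. The balance of the 2 directions depended on the scaling, with 1701 genes higher and 1313 lower as reported but 1432 higher and 1548 lower with TMM scaling. The median log2 fold change, aged minus young, was -0.69 over the 9 genes and 0.03 over all tested genes. In 8 of the 9 genes, all but Myb, every aged library was below every young library, an arrangement seen in 18.3% of all tested genes. For Id3 this rests on 3 reads in an aged and 4 in a young library of another depth, a gap of less than 0.001 CPM. In bulk cultures, fewer cells that express a gene and less RNA per cell cannot be told apart, and this holds for every result below.

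**Figure D1:**
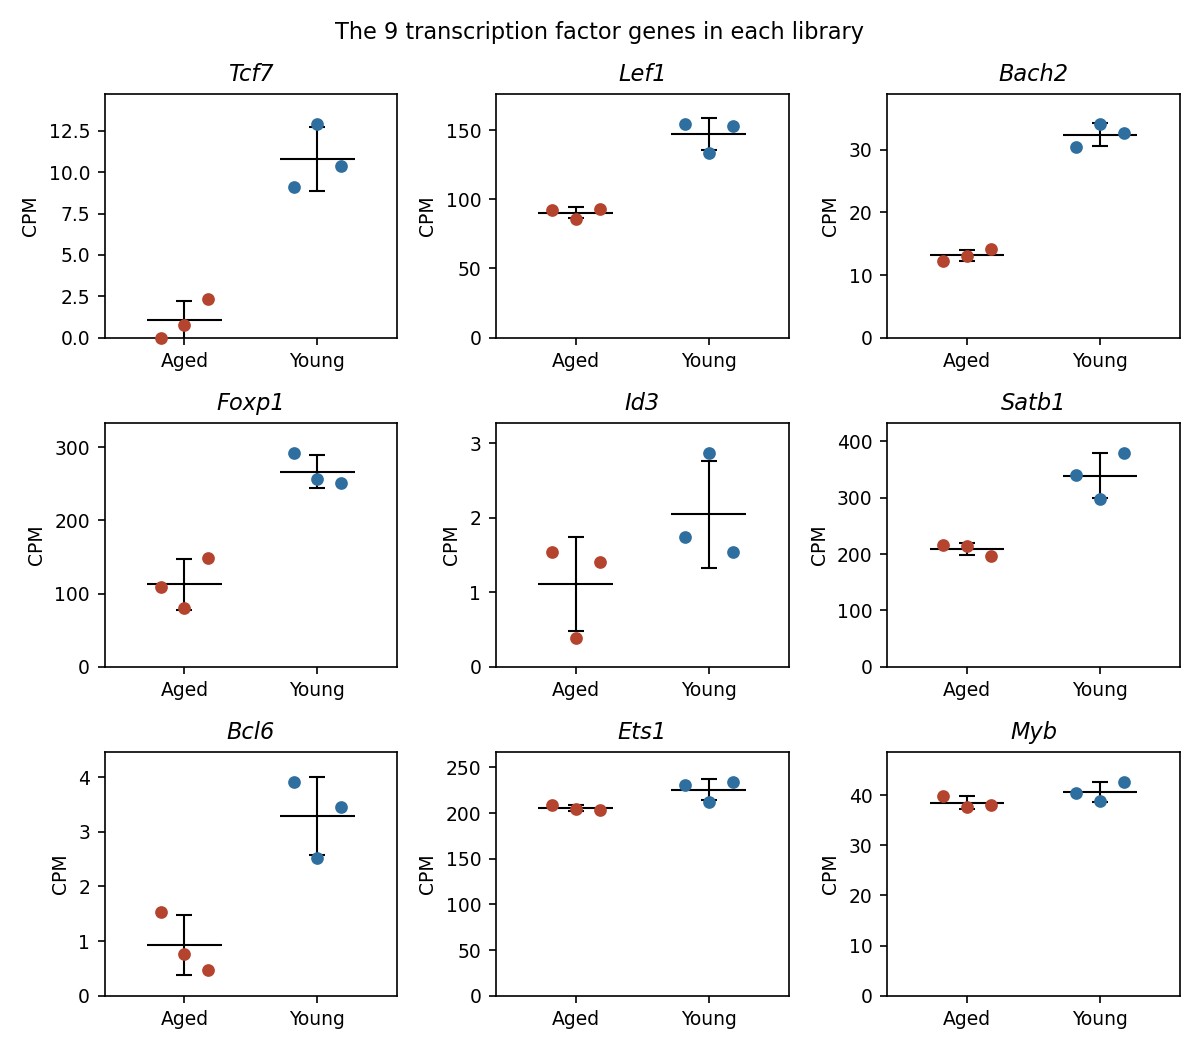
CPM of each of the 9 genes in the 3 aged libraries (left, red) and the 3 young libraries (right, blue), on linear axes that start at 0. Points are libraries, horizontal lines are group means and bars are 1 SD; Tcf7 had 0, 0.767 and 2.35 CPM in aged libraries, against 9.13, 12.9 and 10.4 CPM in young ones, while the Myb ranges overlapped.

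**Figure D2:**
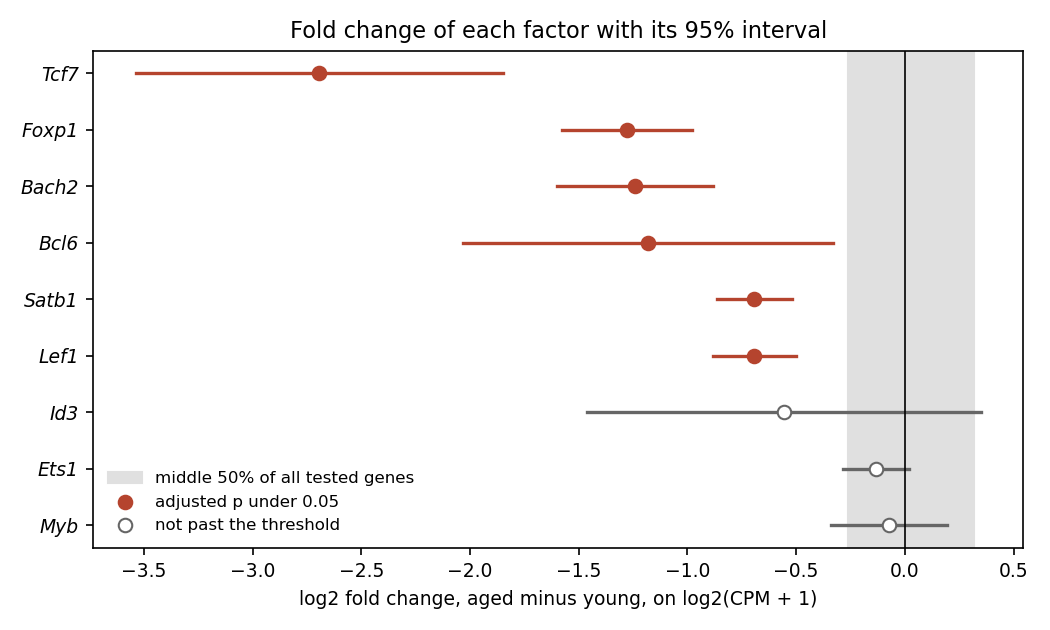
Log2 fold change of each gene, aged minus young on log2(CPM + 1), with its 95% interval (lines); filled points passed the adjusted p threshold of 0.05 and open points did not. The grey band holds the middle 50% of all tested genes; the points run from -2.69 for Tcf7 to -0.07 for Myb.

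Sequence windows from 250 bases before to 50 bases after annotated start sites were found for Tcf7, Lef1, Bach2, Foxp1, Id3, Satb1, Bcl6 and Myb in RefSeq (GRCm38.p6), 19 windows in all. The motif CTTTGA, which TCF-1 and LEF-1 recognise, was searched on both strands. It occurred in 4 of the 19 windows, 1 window each of Lef1, Bach2, Foxp1 and Bcl6, which is 21.1% against 16.0% of all 32851 mouse windows of the same length. No window of Tcf7, Satb1, Id3 or Myb held these letters. These 4 windows are shown as examples of the motif's setting in genes described below; the share is near that of all windows, and binding or regulation was not tested. The 250 bases before the start site are printed 5′ to 3′ on the gene's strand, with the motif, or its reverse complement, in capitals.
Lef1 upstream, chr3:131156044-131156293, + strand: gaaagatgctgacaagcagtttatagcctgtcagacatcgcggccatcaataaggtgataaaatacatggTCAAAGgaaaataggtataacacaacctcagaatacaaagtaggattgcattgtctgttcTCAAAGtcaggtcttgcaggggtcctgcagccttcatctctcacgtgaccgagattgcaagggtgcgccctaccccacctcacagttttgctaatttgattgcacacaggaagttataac
Bach2 upstream, chr4:32417185-32417434, + strand: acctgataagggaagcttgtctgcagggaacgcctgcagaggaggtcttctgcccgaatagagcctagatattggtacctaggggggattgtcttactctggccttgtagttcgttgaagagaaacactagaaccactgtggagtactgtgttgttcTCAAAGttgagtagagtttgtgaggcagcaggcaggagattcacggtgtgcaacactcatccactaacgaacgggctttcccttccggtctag
Foxp1 upstream, chr6:99266516-99266765, - strand: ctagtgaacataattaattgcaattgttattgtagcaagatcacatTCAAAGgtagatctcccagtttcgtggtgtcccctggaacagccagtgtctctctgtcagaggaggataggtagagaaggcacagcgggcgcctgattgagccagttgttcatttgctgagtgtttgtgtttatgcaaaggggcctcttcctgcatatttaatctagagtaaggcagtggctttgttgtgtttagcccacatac
Bcl6 upstream, chr16:23981284-23981533, - strand: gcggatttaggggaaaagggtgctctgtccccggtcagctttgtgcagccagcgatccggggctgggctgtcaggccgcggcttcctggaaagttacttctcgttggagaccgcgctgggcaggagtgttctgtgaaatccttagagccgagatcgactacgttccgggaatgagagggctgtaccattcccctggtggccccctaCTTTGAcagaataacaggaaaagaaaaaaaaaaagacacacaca
All 4 stretches lie before start sites inside the gene, 45823 bases from the annotated gene start in Lef1, 178631 in Bach2, 256206 in Foxp1 and 7569 in Bcl6. Lef1 held 2 copies, 180 and 120 bases before its start site, and the single copies lay 93 bases before the start in Bach2, 204 in Foxp1 and 44 in Bcl6. Libraries made from transcript ends do not show which start site a transcript used. The other motifs searched were GTAAACA for forkhead factors, in 2 of the 19 windows (Tcf7 and Myb; 10.5% against 3.65% of all windows), GGAAGT for ETS factors in 6 (31.6% against 23.8%) and TAACNG for MYB in 8 (42.1% against 23.3%). TGANTCA for BACH and AP-1 factors occurred in 0 of the 19 and in 7.81% of all windows. CANCTG for E proteins occurred in 10 (52.6% against 51.4%) and CCACCC for KLF factors in 11 (57.9% against 31.5%). Several windows belong to the same gene and some overlap, in Lef1 and in Satb1, so the same site can be counted more than once, and the shares are a description. None of these 7 motifs contains another, and a match shows letters and not a bound site.

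Tcf7 had the largest log2 fold change of the 9 genes on this scale. The gene lies on chr11:52252371-52283014 on the minus strand (GRCm38). Its level was 0, 0.767 and 2.35 CPM in the aged libraries, and 9.13, 12.9 and 10.4 CPM in the young ones. These values were 0, 2 and 5 reads in aged libraries and 21, 36 and 27 reads in young libraries, so every aged library was below every young one. The 0 in Aged replicate 1 allows up to 1.54 CPM at that library's depth. Group means were 1.04 ± 1.20 CPM in aged and 10.8 ± 1.93 CPM in young cells (SD, n = 3 each), a log2 fold change of -2.69 (SE 0.40, 95% interval -3.54 to -1.85, limma adjusted p = 4.89e-05). From the reads summed over each group, 7 in aged and 84 in young cells, the aged level was 0.0958 of the young level, with an exact 95% interval of 0.0374 to 0.206 for counting error only. The size of the log2 value moves with the pseudocount, since aged cells had so few reads. It was -4.18 with a pseudocount of 0.1 and -1.40 with a pseudocount of 5, and the call held in both. Its mean over the 6 libraries, aged ones included, was above that of only 20.6% of tested genes.

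Lef1, the relative of Tcf7, was far more abundant and fell less. Lef1 (chr3:131110471-131224356, plus strand) had 92.2, 85.9 and 93.2 CPM in aged libraries, and 154, 134 and 153 CPM in young libraries. The aged libraries lay close together and all below the lowest young one. Means were 90.4 ± 3.97 CPM in aged and 147 ± 11.6 CPM in young cells, a log2 fold change of -0.69 (SE 0.09, 95% interval -0.88 to -0.50, adjusted p = 1.15e-05). The aged level was 61.5% of the young level for Lef1 and 9.62% for Tcf7. The Tcf7 share was 14.4% without Aged replicate 1 and 3.55% without Aged replicate 3, so single libraries set its size. The other 2 TCF genes, Tcf7l1 and Tcf7l2, were below the level tested, with at most 0.471 and 1.02 CPM in any aged library and at most 0.359 and 0.384 CPM in any young library.

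Among 24 tested partners of TCF-1 and LEF-1 and genes of the β-catenin pathway, 2 were lower and 1 was higher in aged cells, and their median log2 fold change was -0.03. The share called lower was 8.33%, and 2 to 3 of these genes were called lower over the alternatives, which is near the 12.5% of all tested genes. Tle4, a Groucho-type corepressor that TCF-1 and LEF-1 recruit, was at 25.2 ± 2.06 CPM in aged and 61.4 ± 6.63 CPM in young cells (log2 fold change -1.25, SE 0.14, adjusted p = 1.42e-06). Bcl9l, a coactivator that binds β-catenin, was at 40.3 ± 5.81 CPM in aged and 63.4 ± 2.19 CPM in young cells (-0.65, SE 0.13, adjusted p = 0.000661). The corepressor Ctbp1 was higher, at 106 ± 7.71 CPM in aged and 80.3 ± 5.93 CPM in young cells (0.39, SE 0.10, adjusted p = 0.00493), a call lost with DESeq2 (0.0515). Csnk1a1, a kinase of the β-catenin destruction complex, had 360 ± 9.03 CPM in aged and 351 ± 3.97 CPM in young cells, and the short Groucho-related gene Aes had 266 ± 2.18 CPM in aged and 260 ± 8.84 CPM in young cells. Both ranges overlapped. TCF-1 and LEF-1 are known in mouse CD8 T cells to hold CD4 lineage genes silent. Of 5 such genes, Cd4 was at 0.383 CPM or less in every aged library and 0.384 CPM or less in every young one, and Foxp3 was below the level tested. Cd40lg had 1.64 ± 0.670 CPM in aged and 0.521 ± 0.218 CPM in young cells and did not pass the test (adjusted p = 0.22). Zbtb7b, which encodes the CD4 lineage factor ThPOK, was at 12.7 ± 3.24 CPM in aged and 20.8 ± 3.40 CPM in young cells (-0.69, SE 0.22, adjusted p = 0.0241). That call was lost without Aged replicate 3 (adjusted p = 0.115), Young replicate 1 (0.101) or Young replicate 2 (0.1), and with DESeq2 (0.0735).

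Bach2, the BTB repressor that occupies AP-1 sites and restrains effector genes, was lower in aged cells with little spread between libraries. Bach2 (chr4:32238804-32586108, plus strand) had 12.3, 13.0 and 14.1 CPM in aged libraries, and 30.4, 34.1 and 32.7 CPM in young libraries. Its coefficient of variation was 6.99% in aged and 5.70% in young cells, and the groups were far apart. These values were 24, 34 and 30 reads in aged libraries and 70, 95 and 85 reads in young libraries. At so few reads counting error alone would give a wider spread on average, so the small spread is not a trait of the gene. Means were 13.1 ± 0.919 CPM in aged and 32.4 ± 1.85 CPM in young cells, a log2 fold change of -1.24 (SE 0.17, 95% interval -1.60 to -0.88, adjusted p = 2.03e-05). The AP-1 and CNC factors that compete for BACH2's sites did not move as a block. Of 8 tested, 2 were lower and 2 higher in aged cells (25% each, against 12.5% and 16.2% of all tested genes). Junb was at 174 ± 7.61 CPM in aged and 268 ± 5.91 CPM in young cells (-0.62, SE 0.07, adjusted p = 2.89e-06), while Fosl2 was at 132 ± 4.83 CPM in aged and 93.3 ± 5.42 CPM in young cells (0.50, SE 0.09, adjusted p = 0.000275). Jund, with 1238 ± 66.2 CPM in aged and 1329 ± 124 CPM in young cells, and Jun, with 112 ± 15.0 CPM in aged and 137 ± 17.8 CPM in young cells, did not pass the test. Jun's adjusted p was 0.0524, and it was called lower in 10 of the 18 alternatives. Batf3 was called lower (9.92 ± 2.49 CPM in aged, 16.0 ± 2.02 CPM in young) and Nfe2l1 higher (61.7 ± 0.771 CPM in aged, 48.7 ± 1.71 CPM in young). Each of these 2 calls was lost on leaving out any of 5 single libraries. Without Aged replicate 1, Aged replicate 2 or Young replicate 1 the adjusted p was 0.06, 0.169 and 0.16 for Batf3 and 0.0581, 0.0727 and 0.0854 for Nfe2l1, without Young replicate 3 it was 0.0797 and 0.0582, without Young replicate 2 it was 0.0634 for Batf3, and without Aged replicate 3 it was 0.0596 for Nfe2l1. Nfe2l1 was also not called with TMM (0.0634), RLE (0.0573) or upper-quartile scaling (0.057), edgeR (0.0636), limma-voom (0.0667) or DESeq2 (0.245), or after thinning (0.108). Batf3 was not called with DESeq2 (0.128) or with no filter (0.0688).

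Bcl6, the BTB zinc-finger repressor that opposes Blimp-1 in lymphocytes, was near the limit of detection. Bcl6 (chr16:23965052-23988852, minus strand) had 1.54, 0.767 and 0.471 CPM in aged libraries and 3.91, 2.51 and 3.46 CPM in young ones, from 3, 2 and 1 reads in aged and 9, 7 and 9 reads in young libraries. No aged library reached the lowest young one. Means were 0.925 ± 0.550 CPM in aged and 3.29 ± 0.714 CPM in young cells, a log2 fold change of -1.18 (SE 0.41, 95% interval -2.03 to -0.33, adjusted p = 0.0348). From summed reads, 6 in aged and 25 in young cells, the aged level was 0.276 of the young one (exact 95% interval 0.0926 to 0.689). The call was lost without Aged replicate 2 (adjusted p = 0.0771), Aged replicate 3 (0.1), Young replicate 1 (0.118), Young replicate 2 (0.0558) or Young replicate 3 (0.0802), and with DESeq2 (0.144) or a pseudocount of 0.1 (0.0527). Bcl6 is thus the one call of the 6 that rests on the choice of test and libraries. Prdm1, which encodes Blimp-1, was also lower, with 58.0 ± 10.5 CPM in aged and 120 ± 10.0 CPM in young cells (-1.04, SE 0.12, adjusted p = 2.53e-06).

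Among 13 tested BTB relatives, small MAF partners and corepressors of BACH2 and BCL6, 2 were lower and 2 higher (median log2 fold change -0.03). Each share was 15.4%, near the 12.5% lower and 16.2% higher of all tested genes. Zbtb20, a BTB zinc-finger repressor, was at 8.59 ± 2.09 CPM in aged and 22.0 ± 1.49 CPM in young cells (-1.28, SE 0.22, adjusted p = 0.000194), and Zbtb7b is given above. Mafg, a small MAF that pairs with BACH2, was called higher with ranges that overlapped (97.5 ± 6.98 CPM in aged, 75.0 ± 19.6 CPM in young, adjusted p = 0.0308), and its transcript end is shared with Sirt7. Zbtb32 was called higher at 136 ± 8.67 CPM in aged and 113 ± 9.05 CPM in young cells (adjusted p = 0.0352). The Mafg call was lost without Aged replicate 1 (adjusted p = 0.086), Aged replicate 3 (0.0903), Young replicate 2 (0.175) or Young replicate 3 (0.124), and the Zbtb32 call without Aged replicate 2 (0.121), Aged replicate 3 (0.0861), Young replicate 2 (0.0782) or Young replicate 3 (0.124). Mafg was also not called with edgeR (0.0627) or DESeq2 (0.148), and Zbtb32 not with TMM (0.0963), RLE (0.0846) or upper-quartile scaling (0.0869), edgeR (0.0857), limma-voom (0.082) or DESeq2 (0.224). The corepressor Ncor1 had 401 ± 15.5 CPM in aged and 435 ± 34.8 CPM in young cells, and Zbtb7a had 240 ± 13.4 CPM in aged and 234 ± 5.98 CPM in young cells. Neither passed the test.

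Foxp1 had the largest difference in CPM of the 9 genes. Foxp1 (chr6:98925338-99522721, minus strand) had 110, 79.7 and 149 CPM in aged libraries, and 292, 257 and 251 CPM in young ones. The aged libraries varied more than the young ones, with Aged replicate 3 highest and Aged replicate 2 lowest, yet all 3 were well below the young range. Means were 113 ± 34.8 CPM in aged and 267 ± 22.1 CPM in young cells, a log2 fold change of -1.28 (SE 0.14, 95% interval -1.58 to -0.98, adjusted p = 2.04e-06). Foxp1 shares a transcript end with the gene model Gm20696, which drew 0, 3 and 0 reads in aged and 2, 6 and 3 reads in young libraries, and overlaps a second model, Gm49348, on its strand. Reads that counting left out as shared are not known, so the Foxp1 level is uncertain to that extent.

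Of 12 other forkhead factors tested, 3 were lower (25%, against 12.5% of all tested genes) and 2 higher (16.7%, against 16.2%). Their median log2 fold change was -0.04, and with so few genes these shares are a description. Foxo1, which drives homing and survival genes of resting T cells, was at 48.8 ± 8.31 CPM in aged and 101 ± 7.02 CPM in young cells (-1.04, SE 0.12, adjusted p = 3.21e-06). Foxn3, a forkhead repressor, was at 35.4 ± 5.68 CPM in aged and 75.8 ± 7.60 CPM in young cells (-1.08, SE 0.13, adjusted p = 5.80e-06), and Foxo3 was at 24.5 ± 4.26 CPM in aged and 40.6 ± 0.674 CPM in young cells (-0.72, SE 0.15, adjusted p = 0.00145). Foxk2 was higher, at 55.3 ± 3.02 CPM in aged and 33.2 ± 2.62 CPM in young cells (0.72, SE 0.13, adjusted p = 0.000244). Foxk1, with 103 ± 6.62 CPM in aged and 113 ± 7.26 CPM in young cells, and Foxj2, with 21.9 ± 3.68 CPM in aged and 23.1 ± 5.46 CPM in young cells, did not pass the test.

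Satb1, the chromatin organiser, had the highest mean CPM of the 9 genes in both groups. In aged cells its range overlapped that of Ets1, and Ets1 was the higher of the pair in Aged replicate 3. Satb1 (chr17:51736187-51833290, minus strand) had 215, 214 and 197 CPM in aged libraries, and 341, 298 and 379 CPM in young libraries. The aged libraries were tightly grouped and all below the lowest young one. Means were 209 ± 10.4 CPM in aged and 339 ± 40.7 CPM in young cells, a log2 fold change of -0.69 (SE 0.08, 95% interval -0.87 to -0.52, adjusted p = 3.91e-06). Satb1 overlaps the gene models Gm36931 on its strand and Gm6934 on the other, and both had 0 reads in every library. As for Foxp1, reads that counting left out as shared are not known.

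Myb did not pass the test, and its ranges in aged and young libraries overlapped. Myb (chr10:21124935-21160984, minus strand) had 39.9, 37.6 and 38.1 CPM in aged libraries, and 40.4, 38.8 and 42.7 CPM in young libraries. Means were 38.5 ± 1.25 CPM in aged and 40.6 ± 1.95 CPM in young cells, a log2 difference of -0.07 (SE 0.13, 95% interval -0.34 to 0.19, adjusted p = 0.726). Its relative Mybl2, a factor of dividing cells, was higher, at 43.1 ± 2.81 CPM in aged and 15.6 ± 1.15 CPM in young cells (1.41, SE 0.16, adjusted p = 1.65e-06). Mybl2 thus reached about the level of Myb in aged cells and stayed below it in young cells. Mybl1, the third gene of the family, had 9.16 ± 3.96 CPM in aged and 10.4 ± 4.32 CPM in young cells and did not pass the test. The acetyltransferases Ep300 and Crebbp, which MYB recruits as coactivators, and Kmt2a, a histone methyltransferase that works with menin, were called lower by small amounts. Ep300 was at 100 ± 6.64 CPM in aged and 128 ± 10.7 CPM in young cells (-0.35, SE 0.09, adjusted p = 0.00731). Kmt2a was at 162 ± 6.04 CPM in aged and 209 ± 17.7 CPM in young cells (-0.36, SE 0.08, adjusted p = 0.00216). Crebbp was at 141 ± 9.90 CPM in aged and 167 ± 7.28 CPM in young cells (-0.24, SE 0.08, adjusted p = 0.0359), a call lost without Aged replicate 1 (adjusted p = 0.0954), Aged replicate 2 (0.132), Young replicate 1 (0.144) or Young replicate 2 (0.0737). The Crebbp call was also lost after thinning (0.0705). Men1, which encodes menin, had 28.8 ± 3.86 CPM in aged and 29.1 ± 2.46 CPM in young cells.

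Ets1, the ETS factor that T cells need for survival, was close to its young level. Ets1 (chr9:32636221-32757820, plus strand) had 209, 204 and 204 CPM in aged libraries, and 230, 212 and 234 CPM in young libraries. Each aged library was below each young one, and the nearest pair were 209 CPM in aged and 212 CPM in young cells. Means were 206 ± 2.94 CPM in aged and 226 ± 11.5 CPM in young cells, a log2 difference of -0.13 (SE 0.07, 95% interval -0.28 to 0.02, adjusted p = 0.19). The interval excludes a fall of the size seen in Lef1 or Satb1. Of 14 other ETS genes tested, 2 were lower and 1 higher (median log2 fold change -0.12). These shares were 14.3% and 7.14%, against 12.5% and 16.2% of all tested genes. The count called lower depended on the scaling. It was 5 with TMM, RLE or upper-quartile scaling, edgeR or limma-voom, and 1 with DESeq2 or without Aged replicate 1, Young replicate 1 or Young replicate 3. Elf1, an ETS activator abundant in T cells, was at 297 ± 16.4 CPM in aged and 369 ± 5.71 CPM in young cells (-0.31, SE 0.07, adjusted p = 0.00136). Elk4 (38.6 ± 5.16 CPM in aged, 52.9 ± 8.99 CPM in young, adjusted p = 0.0264) was called lower and Etv4 (6.02 ± 1.13 CPM in aged, 2.73 ± 0.300 CPM in young, adjusted p = 0.0408) higher. The Etv4 call was lost on leaving out any one library, with an adjusted p of 0.0513 to 0.154, and with TMM (0.052), RLE (0.0507) or upper-quartile scaling (0.0502), limma-voom (0.0573) or DESeq2 (0.205). It was also lost with no filter (0.067), with the replicate block (0.0542) and after thinning (0.116), and held in 3 of 17 alternatives. The Elk4 call was lost without Aged replicate 1 (0.0683), Aged replicate 2 (0.097), Young replicate 1 (0.065) or Young replicate 3 (0.145), and with DESeq2 (0.0513). Fli1, with 201 ± 7.91 CPM in aged and 224 ± 2.50 CPM in young cells, and Elf4, with 65.9 ± 4.02 CPM in aged and 80.4 ± 7.01 CPM in young cells, did not pass the test as reported, but Fli1 was called lower in 5 and Elf4 in 8 of the 18 alternatives.

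Id3, the E protein inhibitor, had too few reads for its difference to be resolved. Id3 (chr4:136143497-136145755, plus strand) had 3, 1 and 3 reads in aged libraries and 4, 8 and 4 reads in young libraries, which is 1.54, 0.383 and 1.41 CPM in aged and 1.74, 2.87 and 1.54 CPM in young cells. The highest aged and the lowest young library were level at this rounding. Means were 1.11 ± 0.633 CPM in aged and 2.05 ± 0.719 CPM in young cells, a log2 difference of -0.56 (SE 0.43, 95% interval -1.46 to 0.35, adjusted p = 0.376). From summed reads the aged level was 0.503 of the young level with an exact 95% interval of 0.175 to 1.29, so a difference was not detectable at this depth. Id2, the other main ID gene of T cells, was present at 3711 ± 126 CPM in aged and 3313 ± 141 CPM in young cells (0.16, SE 0.05, adjusted p = 0.0138). The Id2 call was lost without Aged replicate 2 (adjusted p = 0.0621) or Young replicate 3 (0.059), and with TMM (0.157), RLE (0.121) or upper-quartile scaling (0.13), edgeR (0.146), limma-voom (0.0731) or DESeq2 (0.164). Id1 was called higher from 3.59 ± 0.593 CPM in aged and 1.14 ± 1.39 CPM in young cells (adjusted p = 0.04), a call lost without Aged replicate 1 (0.0653), Aged replicate 2 (0.0784), Aged replicate 3 (0.11), Young replicate 1 (0.191) or Young replicate 2 (0.101), and with edgeR (0.108) or DESeq2 (0.231). The Id1 call was also lost with a pseudocount of 0.1 (0.0637) and after thinning (0.0572). Of the E proteins that ID proteins bind, Tcf4 was at 22.5 ± 7.20 CPM in aged and 35.3 ± 4.50 CPM in young cells (-0.67, SE 0.19, adjusted p = 0.0129), and that call was lost without Aged replicate 2 (0.065), Young replicate 1 (0.0564) or Young replicate 2 (0.0682). Tcf3 had 60.0 ± 5.09 CPM in aged and 59.1 ± 6.15 CPM in young cells, and Tcf12 had 64.6 ± 11.3 CPM in aged and 72.2 ± 11.1 CPM in young cells. Tcf4, Tcf3 and Tcf12 are E proteins and not TCF genes in spite of their symbols.

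**Figure D3:**
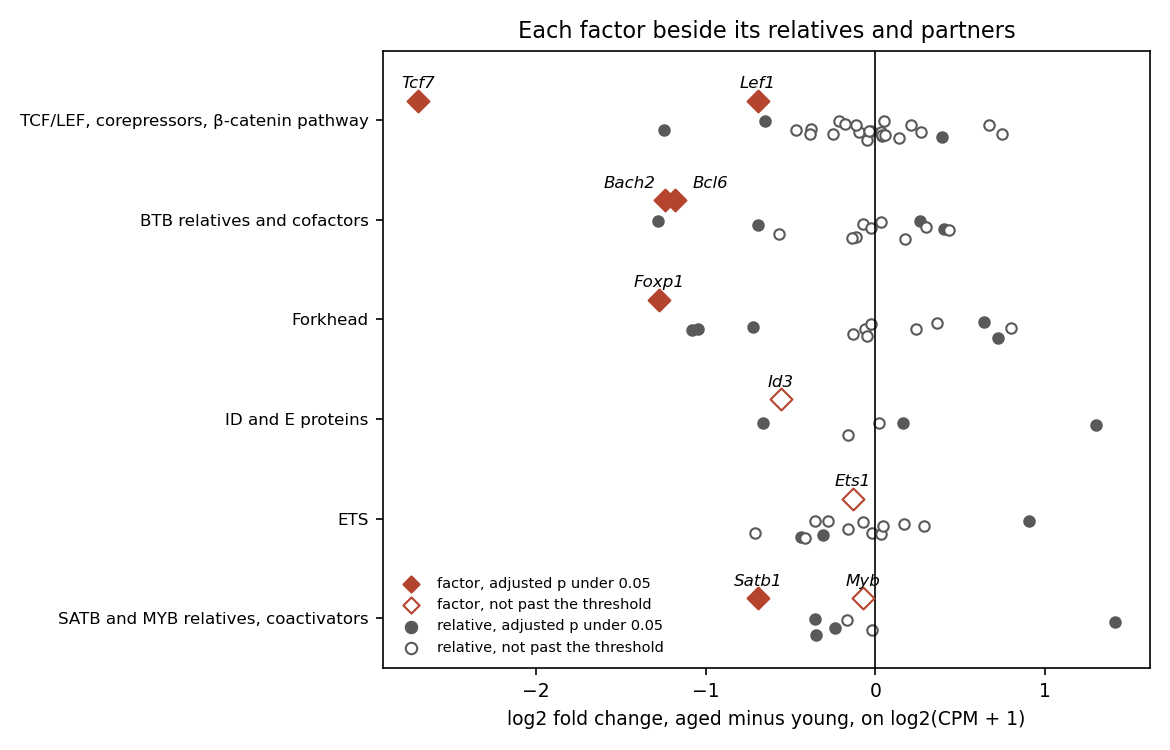
Log2 fold change, aged minus young on log2(CPM + 1), of the 9 factors (diamonds) above that of their tested relatives and partners (circles), 1 row per family; filled symbols passed the adjusted p threshold of 0.05. Tcf7 at -2.69 lay further below 0 than any relative drawn, and Mybl2 at 1.41 lay furthest above it.

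The order of the 9 transcripts differed between the groups. Each read comes from 1 transcript end, so CPM of different genes can be set side by side without dividing by length, although the capture of ends can differ between genes. In aged cells the order of mean CPM was Satb1, Ets1, Foxp1, Lef1, Myb, Bach2, Id3, Tcf7 and Bcl6. In young cells it was Satb1, Foxp1, Ets1, Lef1, Myb, Bach2, Tcf7, Bcl6 and Id3. Ranges of neighbours overlapped in aged cells for Satb1 and Ets1, for Foxp1 and Lef1, and for Id3, Tcf7 and Bcl6, and in young cells for Bcl6 and Id3. Satb1, Foxp1, Ets1 and Lef1 together supplied 91.7% to 91.9% of the summed CPM of the 9 genes in aged libraries, against 90.8% to 92.2% in young ones. The summed CPM of the 9 genes was 681, 636 and 699 in aged libraries, and 1103, 992 and 1108 in young libraries. The means were 672 ± 32.4 CPM in aged and 1068 ± 65.7 CPM in young cells, and the ranges did not overlap.

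Ratios of members within a library do not depend on the library's scaling, and they are given as a description of the same libraries. Foxp1 was at 52.5%, 39.1% and 73.2% of the Ets1 level in aged libraries, and at 127%, 121% and 107% in young libraries, so the order of the pair was opposite in the 2 groups. The ratio of Satb1 to Ets1 was 1.02 ± 0.0444 in aged and 1.50 ± 0.111 in young cells, and that of Lef1 to Ets1 was 0.440 ± 0.0181 in aged and 0.651 ± 0.0209 in young cells. The ratio of Bach2 to Myb was 0.342 ± 0.0317 in aged and 0.799 ± 0.0698 in young cells. In each of these ratios the ranges of the groups did not overlap. Each set a gene called lower over a gene not called, so the separation restates those calls and adds no separate support. The ratio of Satb1 to Foxp1 was 1.32 to 2.69 in aged libraries and 1.16 to 1.51 in young ones, and those ranges did overlap. With 3 libraries a group, no exact two-sided permutation test of a ratio can go below p = 0.1.

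For each of the 7 factors that averaged 5 CPM or more over the 6 libraries, the 2 tested genes with the most similar profile over the 6 libraries were found among 8440 candidates. The measure was the root mean square difference of log2(CPM + 1) after each gene's own mean was removed, and it is a description of 6 libraries. Tcf7 was nearest to Ctla4, an inhibitory receptor (13.7 ± 3.21 CPM in aged, 87.9 ± 15.6 CPM in young; difference 0.391), and to Tcp11l2 (0.420). Lef1 was nearest to Ube2r2, a ubiquitin-conjugating enzyme (75.7 ± 3.43 CPM in aged, 124 ± 7.13 CPM in young; 0.0284), and to Gimap4, a GTPase of lymphocytes (0.0467). Bach2 was nearest to Stac2 (0.0652) and to the T cell membrane gene Ms4a4b (204 ± 14.0 CPM in aged, 469 ± 20.7 CPM in young; 0.0848). Foxp1 was nearest to Lta, the cytokine lymphotoxin alpha (27.2 ± 7.22 CPM in aged, 63.6 ± 6.32 CPM in young; 0.107), and to Ehd3 (0.130). Satb1 was nearest to Rnf169 (0.0289) and to Themis, a T cell receptor signalling protein (112 ± 8.70 CPM in aged, 184 ± 24.0 CPM in young; 0.0457). Ets1 was nearest to Rfx7 (90.4 ± 2.48 CPM in aged, 98.5 ± 5.39 CPM in young; 0.0221) and to Rack1 (0.0283), whose reads may be shared with many near-identical transcripts. Among the 2 genes nearest to Myb was Rnf149 (60.4 ± 1.82 CPM in aged, 61.8 ± 3.10 CPM in young; 0.0247), which shares its end with Gm15832. The distance was widest for Tcf7, the gene with the fewest reads of the 7.

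Many genes of the same naive and stem-like state were lower beside the 9 factors. Of 15 tested surface and secreted genes of naive and stem-like memory T cells, 10 were lower and 0 higher (median log2 fold change -1.13). The share lower was 66.7%, against 12.5% of all tested genes. S1pr1, the receptor for egress from lymph nodes, was at 2.19 ± 0.971 CPM in aged and 44.4 ± 7.24 CPM in young cells (-3.87, SE 0.26, adjusted p = 7.21e-09). Ltb was at 31.8 ± 7.09 CPM in aged and 114 ± 11.2 CPM in young cells, and the costimulatory receptor Cd27 at 18.5 ± 1.14 CPM in aged and 47.7 ± 5.96 CPM in young cells, and both were called lower. The cytokine receptor chains Il2rb, with 1038 ± 46.5 CPM in aged and 1035 ± 12.3 CPM in young cells, and Il7r, with 196 ± 57.5 CPM in aged and 250 ± 59.6 CPM in young cells, did not pass the test. Of 15 tested quiescence regulators, 11 were lower and 1 higher (median -0.72). These shares were 73.3% and 6.67%, against 12.5% and 16.2% of all tested genes. The 1 higher call held in 6 of the 18 alternatives. Foxo1 and Foxo3, given above, are on this list too. Klf2 was at 1.94 ± 0.409 CPM in aged and 43.0 ± 14.3 CPM in young cells (-3.86, SE 0.27, adjusted p = 7.21e-09). Klf13 was at 378 ± 15.7 CPM in aged and 576 ± 35.5 CPM in young cells, Btg1 at 179 ± 12.4 CPM in aged and 363 ± 14.7 CPM in young cells, and Btg2 at 47.8 ± 3.03 CPM in aged and 99.4 ± 10.8 CPM in young cells, and all 3 were called lower. Ikzf1, with 197 ± 7.70 CPM in aged and 212 ± 2.46 CPM in young cells, and Zeb1, with 36.8 ± 3.54 CPM in aged and 42.7 ± 1.35 CPM in young cells, did not pass the test.

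Factors of the effector programme were more often called lower than higher in aged cells. Of 16 tested, 7 were lower (43.8%, against 12.5% of all tested genes). Another 3 were higher (18.8%, against 16.2%), and the median log2 fold change was -0.39. Over the alternatives, 5 to 7 were called lower and 1 to 3 higher. Id2 and Batf3, given above, are on this list too. Besides Prdm1, given above, Rora was lower (10.3 ± 1.65 CPM in aged, 39.8 ± 14.5 CPM in young; -1.80, SE 0.22, adjusted p = 5.12e-06). Runx3, which supports CD8 lineage and cytotoxic genes, was lower too (437 ± 15.8 CPM in aged, 593 ± 29.7 CPM in young; -0.44, SE 0.06, adjusted p = 2.46e-05). Irf8 was higher, at 162 ± 1.66 CPM in aged and 90.9 ± 12.9 CPM in young cells (0.84, SE 0.10, adjusted p = 3.79e-06). Maf, with 224 ± 27.9 CPM in aged and 231 ± 21.9 CPM in young cells, and Hopx, with 128 ± 6.32 CPM in aged and 143 ± 10.1 CPM in young cells, did not pass the test.

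**Figure D4:**
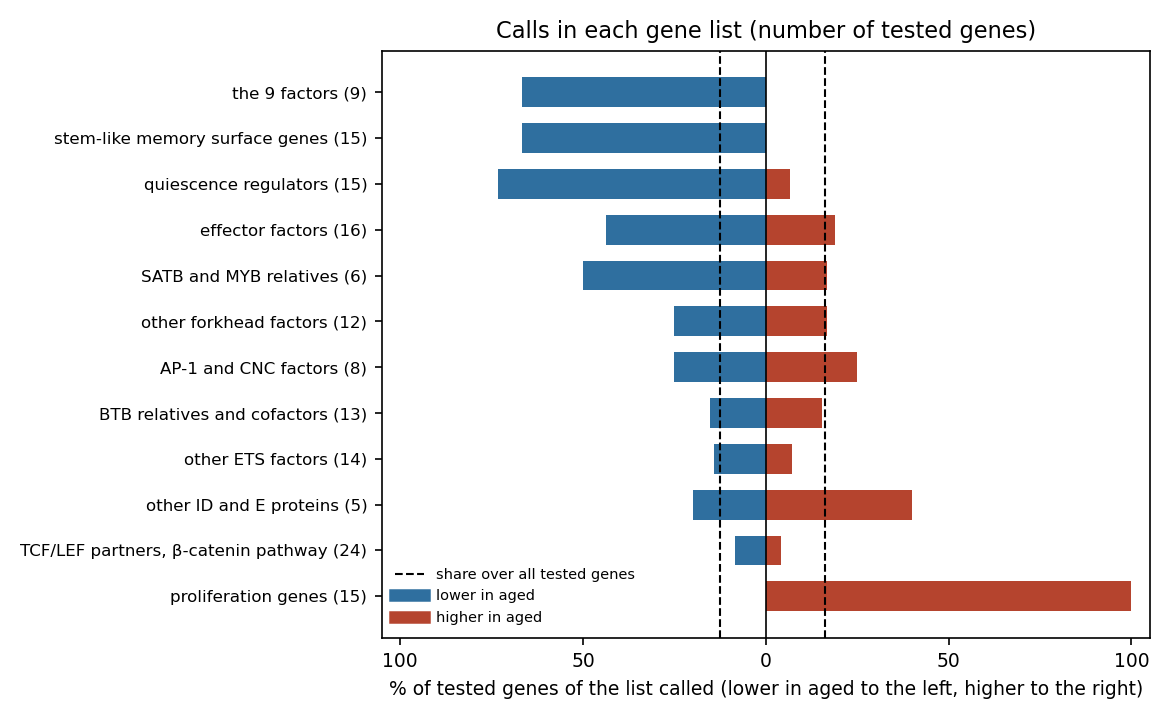
Share of the tested genes of each list called lower (bars to the left, blue) and higher (bars to the right, red) in aged cells; the number of tested genes is in brackets and dashed lines mark the shares over all tested genes, 12.5% and 16.2%. The bar of the 9 factors reaches 66.7% lower, that of their TCF/LEF partners 8.33% lower, and that of the proliferation genes 100% higher. Some lists share genes.

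Other features of the libraries moved with age group beside these genes. All 15 of 15 proliferation genes were higher in aged cells, against 16.2% of all tested genes. Mki67 was at 454, 474 and 478 CPM in aged and 255, 197 and 254 CPM in young libraries. The summed level of the 15 was 4385 to 4435 CPM in aged against 2187 to 2817 CPM in young cells. Of 13 mitochondrially encoded transcripts, 8 were lower (61.5%, against 12.5% of all tested genes). The sum of the 13 was 24960 to 26673 CPM in aged and 28919 to 33086 CPM in young libraries. Cd8a was at 303 ± 52.2 CPM in aged and 270 ± 5.69 CPM in young cells, so the gene that defines the labelled cell type was present. Of 7 markers of CD8 T cells, 5 were lower in aged cells, Cd3e and Cd8b1 among them (71.4%, against 12.5% of all tested genes). Among 8 B cell markers, 5 were at 0 in all 6 libraries, Cd79a, Ms4a1, Pax5 and Blnk among them. The B cell list summed to 0 to 1.53 CPM in aged and 2.51 to 11.1 CPM in young libraries. The only B cell marker tested was called lower in aged cells (1 of 1, against 12.5% of all tested genes). The 5 NK cell markers summed to 75.5 to 120 CPM in aged and 78.4 to 81.5 CPM in young libraries. Of the 4 NK markers tested, 2 were called higher in aged cells and 0 lower (50% higher, against 16.2% of all tested genes). The 8 myeloid markers summed to 8.19 to 19.8 CPM in aged and 14.6 to 21.7 CPM in young libraries, with Lyz2, C1qa, Adgre1 and Fcgr1 at 0. The end of Lyz2 is near-identical to that of Lyz1, so its 0 may come from reads left out as shared. Of the 3 myeloid markers tested, 2 were called lower in aged cells and 0 higher (66.7% lower, against 12.5%). The 5 dendritic cell markers summed to 10.4 to 15.9 CPM in aged and 25.7 to 44.3 CPM in young libraries, with Flt3, Siglech and Cd209a at 0. Of the 2 dendritic cell markers tested, 1 was called lower in aged cells and 0 higher (50% lower, against 12.5%). The 4 CD4 T cell markers summed to 11.3 to 18.9 CPM in aged and 19.6 to 23.7 CPM in young libraries. The 6 erythroid markers summed to 1.15 to 4.71 CPM in aged and 10.0 to 22.3 CPM in young libraries, with 2 at 0, Hbb-bs among them. The end of Hbb-bs is near-identical to that of Hbb-bt, so its 0 may come from reads left out as shared. Called lower were 1 of 2 tested CD4 markers (50%) and 1 of 3 tested erythroid markers (33.3%), against 12.5% of all tested genes, and 0 were called higher. The 3 plasma cell markers summed to at most 4.61 CPM in aged and 8.45 CPM in young libraries, the 3 of innate-like T cells and the 3 of platelets to at most 0.767 CPM in any library, and the 4 stromal markers to 33.7 to 41.5 CPM in aged and 42.2 to 58.0 CPM in young libraries. The part of these differences in the levels of the 9 genes was not tested.

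**Figure D5:**
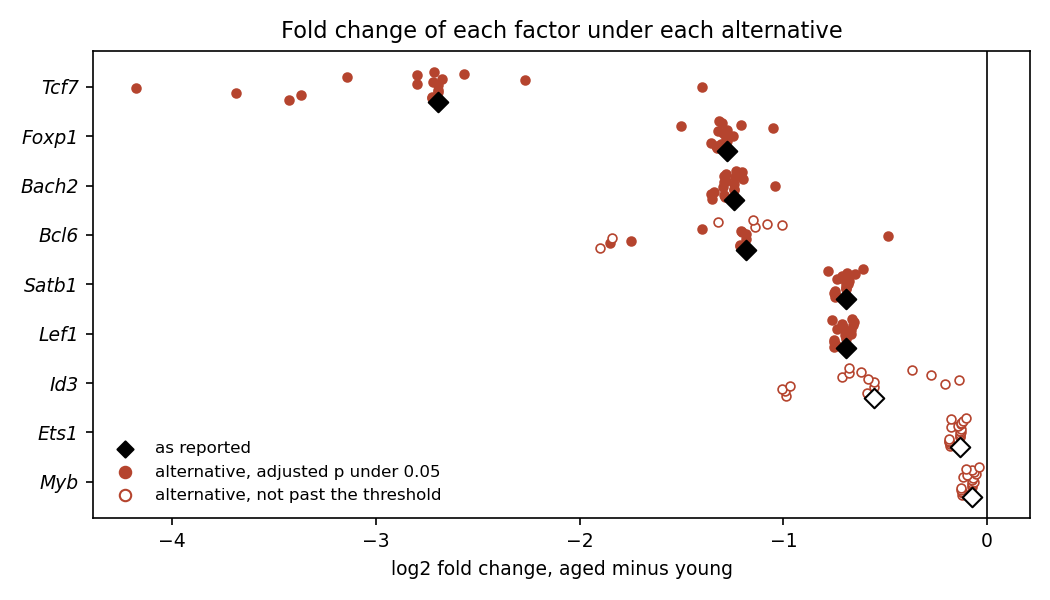
Log2 fold change, aged minus young, of each of the 9 genes as reported (black diamonds) and under 18 other settings of the analysis (circles); filled symbols passed the adjusted p threshold of 0.05. All circles of Tcf7, Lef1, Bach2, Foxp1 and Satb1 are filled, those of Bcl6 are mixed, and those of Id3, Ets1 and Myb are all open.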

How the data were processed

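The 6 libraries were made with a QuantSeq kit, which reads the 3' end of each polyadenylated transcript, from 500 ng of total RNA, per the labels' protocols. Per the submitters' processing notes, GRCm38 (mm10) was the build. How reads were aligned and counted, strand included, is, of the sources used here, given in none, so reads of Lef1, Bach2 and Myb could include those of genes that overlap them on the other strand. Bcl6 and several other named genes, Junb, Elf1, Bcl9l and Foxo1 among them, also overlap a gene on the other strand. Their levels are uncertain to that extent. The authors deposited CPM, 1 file a library, and each column sums to 1000000. All values (100%) were whole multiples of 1 read within 0.001 reads, so whole reads were recovered. Totals ran from 1952552 to 2608553 reads in aged and 2300219 to 2785915 reads in young libraries, and 1 read was worth 0.359 to 0.512 CPM. A 0 allows 3 reads, or 1.08 to 1.54 CPM. No molecular identifiers are described, so floors and intervals cover counting error only. Trac, Trbc1 and Trbc2 were listed at 0 in every library, so a 0 in all libraries does not show that a gene is silent. In the file GEO ties to Aged replicate 2 the header says replicate 3; GEO's record was followed, and the 2 files hold different values. No 2 libraries were identical, and the chi-square per degree of freedom between replicates was 1.72 to 2.90.

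Genes that averaged 1 CPM or more over the 6 libraries were tested with limma 3.58.1 (R 4.3.3) with an intensity trend on log2(CPM + 1), two-sided, aged minus young, which understates the change of low genes. The planned design gave limma as the test for normalized values. Alternatives, 18 in all, were edgeR 4.0.16 and DESeq2 1.42.0 on the recovered reads, limma-voom, other scalings, pseudocounts and filters, thinning to the smallest total, a replicate block and leaving out each library. The fits were also run on simulated data in which far fewer genes changed, with equal numbers up and down. That setting differs from these data, so it cannot show how the scaling affects the calls here. Mybl2, Ncor1, Zbtb7b, Foxn3, Btg1 and Klf13 have a near-identical transcript end elsewhere and Elk4 overlaps a gene model on its strand, so their levels are uncertain as far as counting could split reads. Gene positions are from GENCODE M21 and sequences from RefSeq. The 9 genes and all gene lists were chosen with earlier results of these data known. Named from each list were up to 4 called genes with the smallest p and up to 2 tested genes that were not called with the highest mean, and for each of the 9 with a mean of at least 5 CPM the 2 genes nearest in profile. Genes outside this rule (Tcf7l1, Tcf7l2, Cd4, Foxp3, Cd8a, Cd8b1, Cd3e) were named after their values were seen. Some genes that the rule names are not reported here.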

Additional observations from a re-analysis of the deposited data

How the results depend on the processing

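Tcf7, Lef1, Bach2, Foxp1 and Satb1 were called lower under all 18 alternatives. Their log2 fold changes ran from -4.18 to -1.40 for Tcf7, -0.76 to -0.66 for Lef1, -1.35 to -1.04 for Bach2, -1.50 to -1.05 for Foxp1 and -0.78 to -0.61 for Satb1. Bcl6 had an adjusted p of 0.0193 to 0.144 over 17 alternatives and was not called with DESeq2, with a pseudocount of 0.1, or without Aged replicate 2, Aged replicate 3 or any one young library; a filter at a mean of 5 CPM removed it and Id3. Ets1 (adjusted p 0.0557 to 0.372), Id3 (0.302 to 0.866) and Myb (0.503 to 0.881) were called under none. Between 5 and 6 of the 9 genes were called lower and 0 higher under every alternative. No pairing by replicate number was seen. Deviations from the group means had correlations of 0.0209, 0.00025 and 0.0028 between aged and young libraries of the same number. Many genes in that check had few reads, so it cannot exclude a shared batch. A fit with the replicate block called 6 of the 9 genes lower, 1725 genes higher and 1336 lower. Over all genes, 952 were called higher with DESeq2 against 1701 as reported, and the other alternatives gave 1323 to 1726; genes called lower ran from 1010 to 1555, against 1313 as reported. More genes were called higher than lower as reported, and fewer with TMM (1432 and 1548), RLE (1451 and 1531) or upper-quartile scaling (1465 and 1495), edgeR (1443 and 1555), limma-voom (1436 and 1520) and DESeq2 (952 and 1017). Of the 49 called genes named beside the 9, 36 were called under every alternative and none changed direction. Of the 24 named genes that were not called, 10 changed sign under at least 1 alternative and 4 (Elf4, Fli1, Il7r and Jun) were called under at least 1. Depth limits Bcl6, Id3 and Tcf7 in aged cells, where a library held at most 5 reads of each.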
